A study of Mus musculus with 4 samples.

Results

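The genes described here were 37 genes of skeletal muscle, measured in preparations of rib chondrocytes. They were chosen by name as genes of fast and slow fibres, of developing muscle and of muscle regulation, and for each the brightest probe set was taken, by mean log2 signal over the 4 arrays, among the probe sets that name no other gene. All 37 were found, out of 18193 genes that could be named in this way, with 56 probe sets between them. Of the 37 genes, 26 had 1 probe set and 11 had more.

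Chondrocytes were collected with collagenase from the costochondral (rib) cartilage of C57BL6/J mice aged 5 days, and RNA pooled from 3 extractions was hybridized to 1 whole-genome expression array per genotype. The wild type carried neither change. In the XBP1 null, exon 2 of *Xbp1* had been deleted by a Cre recombinase under the *Col2a1* promoter, which is active in cartilage. The *Matn3* mutant was homozygous for a knock-in valine-to-aspartate change in matrilin-3, a change that models human multiple epiphyseal dysplasia, with *Xbp1* intact. The double mutant carried both changes. Animals were pooled, there were no replicates, and the differences between arrays given below therefore have no error and no test of their own.

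Skeletal muscle lies directly on the ribs, as the intercostal muscles, and has to be removed from rib cartilage by dissection and digestion. A muscle fibre contracts through repeating sarcomeres, in which myosin of the thick filament pulls on actin of the thin filament after calcium has bound to troponin. Fast and slow fibres use different genes for the same filament proteins, embryonic and perinatal myosins precede the adult ones, and the transcription factors MYOD1 and myogenin switch these genes on by binding E-boxes in their regulatory DNA. Most genes of this kind are not part of the usual programme of a chondrocyte.

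Signals are linear intensities in the units of the deposited values. For log2 differences, signals under 1 were set to 1, so a difference that starts from such a signal depends on that floor. Where 4 signals of a gene are listed together, the wild type comes first, then the XBP1 null, then the *Matn3* mutant and last the double mutant. A signal of 41.6 was the median over all 45037 probe sets (the antilog of the median of mean log2), and a signal of 5.52 was the 25th percentile of all values. Differences over 1.5-fold were counted, and each count of muscle genes is given beside the share of all genes that passed the same rule.

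The preparations gave little signal for most muscle genes. Of the 37, 8 reached the median, by their mean log2 signal, which is 21.6%, whereas 10982 of the 18193 genes were, which is 60.4%. These 8 were *Tnnt3*, *Eno3*, *Acta1*, *Tnni2*, *Tnnc1*, *Myod1*, *Mybpc1* and *Casq1*. The median signal of the 37 genes was 8.92, and that of all genes was 113. Another 11 of the 37 (29.7%) stayed under the 25th percentile on every array, compared with 12.0% of all genes, and 12 stayed under 10 on every array. Of their 148 values, 20 (13.5%) were under 1, compared with 6.80% over all genes. The adult, developmental and slow myosin heavy chains, by which muscle tissue is usually defined, were among the dimmest: none of the 6 exceeded 13.2 on any array. The myosin heavy chains were low, with *Myh8* and *Myh4* above the 25th percentile but below the median in the double mutant, while the fibre genes *Tnnt3*, *Acta1* and *Tnni2* were above the median on every array.

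**Figure D1:**
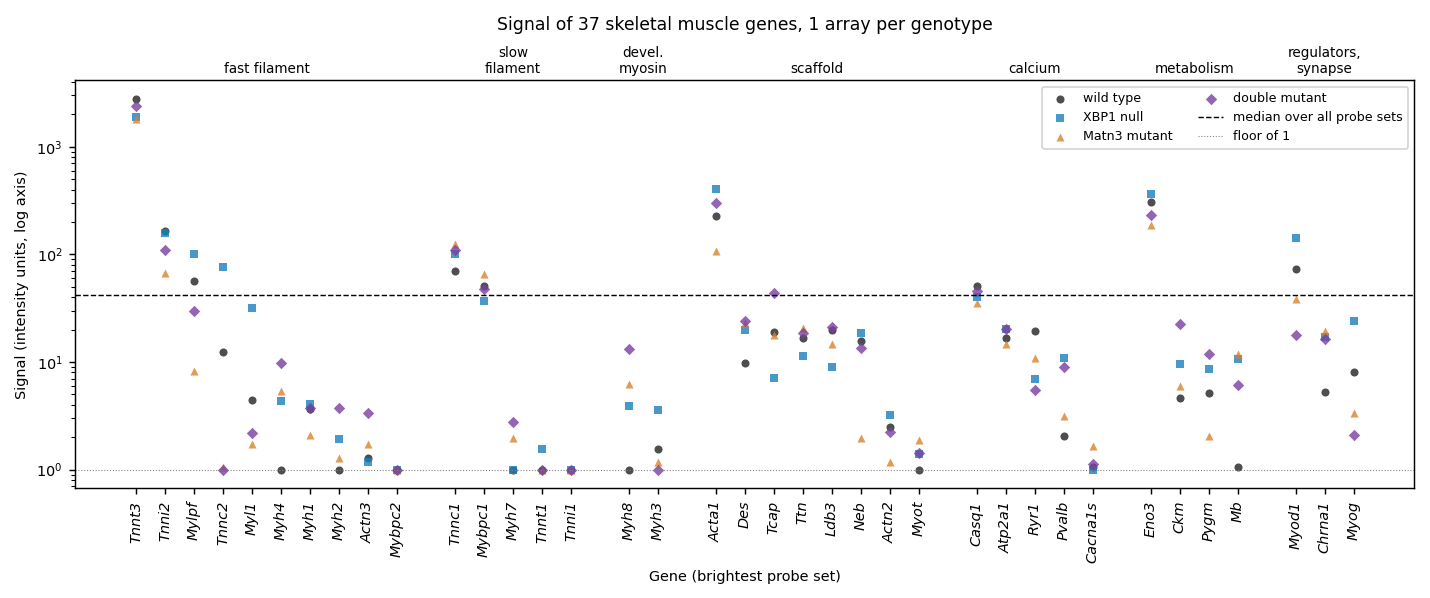
Signal of the 37 skeletal muscle genes on each of the 4 arrays (vertical log axis, intensity units), grouped by role, with signals under 1 drawn at 1. The dashed line is the median over all probe sets (41.6). *Tnnt3* stands far above the dashed line on every array, and most genes lie below the dashed line on all 4.

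The genes were summed for each array, with the caution that probe sets differ in brightness. The sum of the 37 signals was 3956 in the wild type, 3558 in the XBP1 null, 2639 in the *Matn3* mutant and 3559 in the double mutant. *Tnnt3* alone made up 70.3%, 53.6%, 69.3% and 67.6% of it. Without *Tnnt3* the sums were 1176, 1652, 810.4 and 1152, so the XBP1 null became the highest array and the *Matn3* mutant stayed the lowest. The median gene had a signal of 5.24 in the wild type, 10.6 in the XBP1 null, 6.004 in the *Matn3* mutant and 11.8 in the double mutant. Leaving aside *Mybpc2* and *Tnni1*, which were under 1 on every array, the highest of the 4 signals was in the XBP1 null for 14 of 35 genes, in the double mutant for 10, in the *Matn3* mutant for 7 and in the wild type for 4. In RNA from mixed cells, fewer cells of a type and less RNA per cell cannot be told apart.

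Among the fast fibre filament genes, *Tnnt3*, the fast troponin T that ties troponin to tropomyosin, was the brightest. Its signal was 2779.9 in the wild type, 1906 in the XBP1 null, 1829 in the *Matn3* mutant and 2406 in the double mutant. The wild type was thus highest, and the *Matn3* mutant was 1.52-fold lower, just past the threshold. Its partner in the troponin complex, the fast inhibitory subunit *Tnni2*, read 165, 159, 66.9 and 109. The *Matn3* mutant was again the lowest array, 2.47-fold below the wild type, and the double mutant was 1.63-fold above it. A second probe set of *Tnni2* read 72.6, 60.3, 17.7 and 51.0, with the same order of arrays, and the third was under 1 on all 4.

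*Mylpf*, the fast regulatory light chain of myosin, lay just below the median signal, at 57.0 in the wild type, 100.3 in the XBP1 null, 8.23 in the *Matn3* mutant and 29.96 in the double mutant. It passed 1.5-fold in all 4 comparisons: the XBP1 null was 1.76-fold above the wild type and the double mutant 3.64-fold above the *Matn3* mutant, while the *Matn3* mutant was 6.93-fold below the wild type and the double mutant 3.35-fold below the XBP1 null. *Tnnc2*, the calcium-binding subunit of fast troponin, was at 12.3, 75.8, 1.05 and 0.318, and *Myl1*, a fast essential light chain, at 4.44, 31.9, 1.75 and 2.20. Both were therefore high only in the XBP1 null, where *Tnnc2* was 6.15-fold and *Myl1* 7.18-fold above the wild type, and both were near the floor on the 2 arrays with the *Matn3* mutation.

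The remaining fast genes stayed at the bottom of the scale. *Myh4*, the fast myosin of IIB fibres, had signals of 0.528, 4.32, 5.40 and 9.86, and *Myh2*, that of IIA fibres, 0.860, 1.94, 1.29 and 3.77. *Myh1*, that of IIX fibres, was at 3.64, 4.06, 2.09 and 3.77. Its second probe set was 3.84-fold higher in the XBP1 null than in the wild type, where the brightest was within 1.5-fold. *Actn3*, the Z-disc actinin of fast fibres, was at 1.29, 1.18, 1.73 and 3.36, and the fast myosin-binding protein *Mybpc2* was under 1 throughout. The second probe set of *Myh4* read 1.13, 2.01, 1.98 and 1.34, and did not share the higher signal of the double mutant over the *Matn3* mutant. None of these 5 exceeded 9.86, so their fold differences, such as 2.28-fold for *Myh4* between the double mutant and the XBP1 null, compare signals close to the floor.

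Of the 5 slow fibre filament genes, 2 were above the median signal. *Tnnc1*, the troponin C shared by slow muscle and heart, was at 69.3 in the wild type, 102 in the XBP1 null, 124 in the *Matn3* mutant and 109.7 in the double mutant. All 3 mutant arrays lay above the wild type, 1.79-fold for the *Matn3* mutant and 1.47-fold for the XBP1 null. *Mybpc1*, the slow myosin-binding protein C, read 51.3, 36.8, 65.6 and 47.2, within 1.5-fold in every comparison. Its second probe set read 7.82, 9.22, 49.8 and 47.2, so the 2 probe sets disagreed on the *Matn3* mutation. *Myh7*, the slow myosin, was at 0.396, 0.569, 1.97 and 2.77, the slow troponin T gene *Tnnt1* at 0.960, 1.56, 0.463 and 0.439, and the slow inhibitory subunit *Tnni1* was under 1 on every array. Both developmental myosins were low as well: *Myh8*, the perinatal form, was at 0.837, 3.91, 6.31 and 13.2, and *Myh3*, the embryonic form, at 1.54, 3.59, 1.18 and 0.907. *Myh8* was thus lowest in the wild type and highest in the double mutant, an order that *Myh4* shared.

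Among the scaffold genes of the sarcomere, *Acta1*, the actin of the skeletal muscle thin filament, was clearly measured. It had a signal of 226 in the wild type, 404 in the XBP1 null, 108 in the *Matn3* mutant and 299.9 in the double mutant. Both arrays without XBP1 were above both arrays with it. The difference was 1.78-fold against the wild type and 2.78-fold against the *Matn3* mutant. The *Matn3* mutant was 2.10-fold below the wild type, and the double mutant 1.35-fold below the XBP1 null. *Des*, the muscle intermediate filament desmin, was at 9.71, 19.7, 23.0 and 24.0, and was lowest in the wild type. Its second, dimmer probe set read 2.62, 4.26, 2.08 and 6.20 and was lowest in the *Matn3* mutant. *Neb*, nebulin, which runs along the thin filament, was at 15.6, 18.6, 1.95 and 13.4, with the *Matn3* mutant apart from the other arrays. *Tcap*, the titin cap, was at 19.1, 7.08, 17.7 and 43.5, and *Ldb3*, a Z-disc protein, at 19.98, 8.95, 14.8 and 21.1. Both were lowest in the XBP1 null and highest in the double mutant, unlike *Acta1*. The other probe sets of *Ldb3* were each over 2-fold higher in the *Matn3* mutant than in the wild type, where the brightest was within 1.5-fold. *Ttn*, titin, the spring of the sarcomere, was at 16.6, 11.3, 20.6 and 18.6 with its brightest probe set of 6. *Actn2*, the Z-disc actinin of all striated fibres, was at 2.51, 3.20, 1.18 and 2.22, and the Z-disc gene *Myot* at 0.947, 1.39, 1.90 and 1.41, both near the floor.

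Of the 5 calcium handling genes, 1 was above the median signal. *Casq1*, the calcium store protein of the fast sarcoplasmic reticulum, was at 50.5 in the wild type, 40.4 in the XBP1 null, 35.3 in the *Matn3* mutant and 45.6 in the double mutant, within 1.5-fold throughout. It was the dimmest of the 8 genes above the median. *Atp2a1*, the fast calcium pump, was at 16.7, 20.1, 14.8 and 20.1 and also stayed within 1.5-fold. *Ryr1*, the calcium release channel, was at 19.4, 6.91, 10.9 and 5.49, lower without XBP1 on both backgrounds, by 2.81-fold and 1.99-fold. Its second probe set read 15.3, 4.19, 17.1 and 6.44, also lower without XBP1. *Pvalb*, the calcium buffer parvalbumin of fast fibres, went the other way, at 2.07, 10.965, 3.14 and 8.89. *Cacna1s*, the voltage sensor of the T-tubule, was at 1.05, 0.726, 1.66 and 1.14.

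Of the metabolic genes, *Eno3*, the muscle form of enolase, was the best measured, at 307 in the wild type, 361 in the XBP1 null, 186 in the *Matn3* mutant and 233 in the double mutant. It was lower with the *Matn3* mutation on both backgrounds, by 1.65-fold and 1.55-fold, and within 1.5-fold for the loss of XBP1. *Ckm*, muscle creatine kinase, was at 4.61, 9.61, 6.004 and 22.4, and *Pygm*, muscle glycogen phosphorylase, at 5.12, 8.66, 2.06 and 11.8. Both were higher without XBP1 on both backgrounds, although all their signals were under the median of 41.6. The second probe set of *Ckm* read 1.93, 1.65, 11.2 and 11.3 and was within 1.5-fold for the loss of XBP1 on both backgrounds, so the 2 probe sets disagreed. *Mb*, myoglobin, the oxygen store, was at 1.07, 10.6, 11.8 and 6.11, with the wild type apart from the 3 mutant arrays. Its second probe set read 4.49, 0.950, 11.6 and 2.32, so the probe sets of *Mb* disagreed on the loss of XBP1 in the wild type background.

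Among the 8 genes above the median signal, a regulator had the widest range over the arrays. *Myod1*, the factor that commits cells to muscle, was at 73.9 in the wild type, 141 in the XBP1 null, 38.7 in the *Matn3* mutant and 17.9 in the double mutant. *Myog*, myogenin, which drives differentiation after it, was at 8.10, 24.1, 3.33 and 2.10, in the same order of arrays. Both were thus highest in the XBP1 null and lowest in the double mutant: without XBP1 they were 1.91-fold and 2.97-fold higher on the wild type background, and 2.16-fold and 1.58-fold lower on the *Matn3* mutant background. A second, dimmer probe set of *Myod1* read 6.26, 7.82, 19.0 and 7.04 and did not show this order. *Chrna1*, the acetylcholine receptor subunit of the muscle membrane, was at 5.24, 17.1, 19.3 and 16.3, lowest in the wild type and within 1.5-fold of each other on the other 3 arrays.

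**Figure D2:**
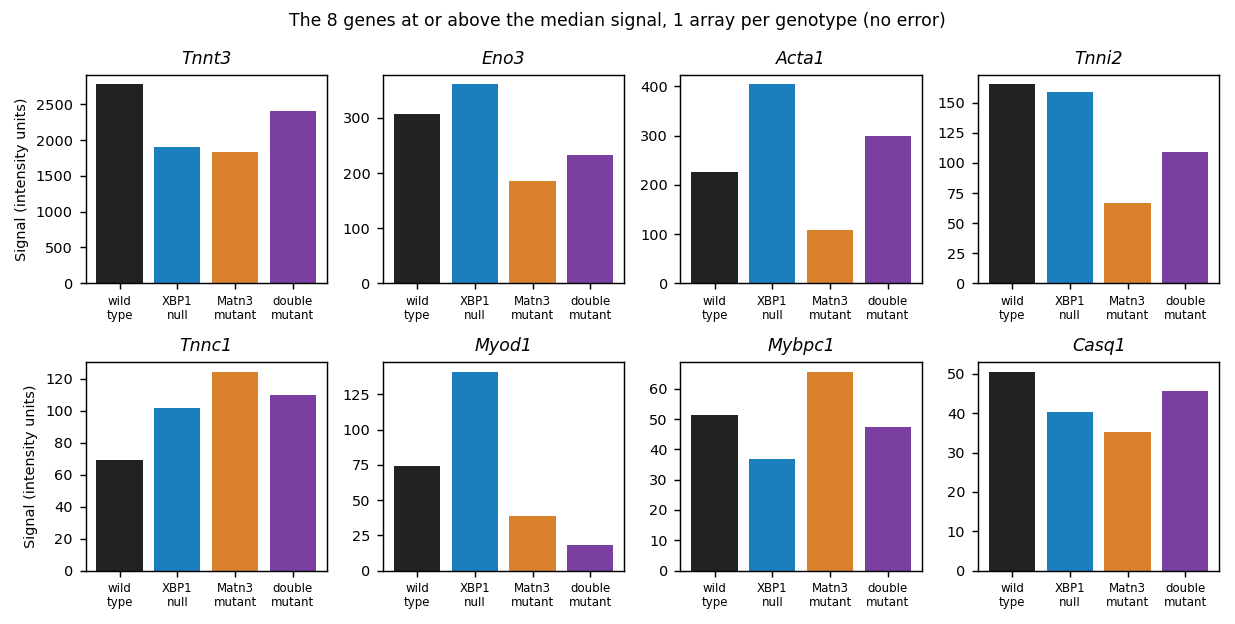
Signal (intensity units, linear axis from 0) of the 8 muscle genes at or above the median signal, 1 bar for the single array of each genotype, without error. *Acta1* is highest in the XBP1 null and lowest in the *Matn3* mutant, *Tnnc1* is lowest in the wild type, and *Myod1* is at 141 in the XBP1 null and 17.9 in the double mutant.

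The question of what loss of XBP1 does was put on both backgrounds. In the XBP1 null against the wild type, 17 of the 37 genes (45.9%) were over 1.5-fold higher and 3 (8.11%) lower, beside 23.3% higher and 11.5% lower over all genes, and their median log2 difference was 0.47, beside 0.09 over all genes. In the double mutant against the *Matn3* mutant, 14 (37.8%) were higher and 4 lower, beside 17.4% and 9.03%, with a median of 0.37, beside 0.15. Both shares of higher genes were about 2 times those of all genes, but this background was not matched for signal. Of all genes 60.4% were at or above the median signal, beside 21.6% of the 37. Genes at or above it were less often higher than all genes were, at 18.8% and 11.9%. With every signal under 5.52 set to that value, 13 genes were higher and 3 lower against the wild type and 10 higher and 3 lower against the *Matn3* mutant, while both medians were 0. Of the 8 genes above the median signal, 2 were higher (25%) and 0 lower against the wild type (background of genes above the median 18.8% and 5.82%), with a median of 0.09, and 2 were higher (25%) and 1 lower against the *Matn3* mutant (11.9% and 3.00%), with a median of 0.35. Of the 20 genes past 1.5-fold against the wild type, 16 had both signals below 41.6.

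On both backgrounds together, 8 genes were higher without XBP1 by their brightest probe sets: *Acta1*, *Mylpf*, *Ckm*, *Pygm*, *Pvalb*, *Myh8*, *Myh4* and *Myh2*. Over all genes 4.65% were, and these comparisons share no array. Of the 8, only *Acta1* was above the median signal. They belong to the thin filament, the thick filament, energy supply and calcium buffering, and the fast fibre genes were 5 higher and 0 lower of 10 against the wild type, and 6 higher and 0 lower against the *Matn3* mutant. The slow filament genes were 1 higher of 5 and 0 of 5. The 1 was *Tnnt1*, at 0.960 and 1.56. In the wild type *Myh2*, *Myh4* and *Mybpc2* of the fast and *Myh7*, *Tnnt1* and *Tnni1* of the slow genes were under 1. They were set to 1 and so could not be counted as lower there. *Ryr1* alone was lower on both backgrounds, beside 1.80% of all genes. By their brightest probe sets, 4 genes went in opposite directions on the 2 backgrounds, *Myod1*, *Myog*, *Tcap* and *Mb*, beside 7.05% of all genes. The second probe set of *Mb* was lower without XBP1 on both, by 4.49-fold and 4.98-fold.

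The promoters of 5 of these 8 genes are shown, namely the 5 that held the E-box CAGCTG. They were chosen for holding it, so its presence in each printed sequence is no result. The promoters of *Pvalb*, *Myh8* and *Myh2* held no CAGCTG and are not printed. E-boxes are the sites through which MYOD1 and myogenin are known to act. Each sequence is the 250 bases before the annotated start of the gene, from RefSeq, printed in the direction of transcription. Capitals mark the E-box CAGCTG, which reads the same on both strands, and the CArG box, the known binding motif of serum response factor.
Acta1, GRCm38.p6 chr8:123894776-123895025, minus strand: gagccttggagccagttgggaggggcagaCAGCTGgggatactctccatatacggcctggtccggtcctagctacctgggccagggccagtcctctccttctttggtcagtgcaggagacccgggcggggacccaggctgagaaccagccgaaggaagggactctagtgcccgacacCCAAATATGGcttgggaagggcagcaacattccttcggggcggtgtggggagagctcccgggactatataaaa
Mylpf, GRCm38.p6 chr7:127211358-127211607, plus strand: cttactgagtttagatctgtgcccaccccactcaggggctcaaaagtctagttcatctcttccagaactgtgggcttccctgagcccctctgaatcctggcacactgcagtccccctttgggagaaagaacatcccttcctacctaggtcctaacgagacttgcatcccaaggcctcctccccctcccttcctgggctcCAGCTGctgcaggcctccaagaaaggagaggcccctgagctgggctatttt
Ckm, GRCm38.p6 chr7:19410844-19411093, plus strand: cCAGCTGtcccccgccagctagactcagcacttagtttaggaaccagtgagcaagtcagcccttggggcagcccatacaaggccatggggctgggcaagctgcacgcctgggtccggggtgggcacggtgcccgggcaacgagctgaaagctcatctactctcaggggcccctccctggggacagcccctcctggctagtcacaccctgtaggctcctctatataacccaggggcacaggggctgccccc
Pygm, GRCm38.p6 chr19:6384158-6384407, plus strand: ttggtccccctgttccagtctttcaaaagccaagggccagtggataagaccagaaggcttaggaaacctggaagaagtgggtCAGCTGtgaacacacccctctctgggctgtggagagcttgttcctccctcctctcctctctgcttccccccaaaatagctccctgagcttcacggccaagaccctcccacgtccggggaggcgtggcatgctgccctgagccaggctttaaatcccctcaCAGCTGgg
Myh4, GRCm38.p6 chr11:67237562-67237811, plus strand: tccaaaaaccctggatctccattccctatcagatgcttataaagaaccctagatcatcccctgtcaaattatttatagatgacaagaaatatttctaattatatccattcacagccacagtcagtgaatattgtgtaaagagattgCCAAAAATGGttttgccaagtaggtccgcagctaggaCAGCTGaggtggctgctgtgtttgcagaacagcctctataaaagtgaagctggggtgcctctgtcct
*Acta1* and *Myh4* each hold 1 CAGCTG and 1 CArG box in this stretch. *Mylpf* and *Ckm* hold 1 CAGCTG each, and *Pygm* holds 2.

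Promoter windows of 300 bases, 250 before to 50 after a start, were given for 30 of the 37 genes. The windows of 15 of the 30 (50%) held CAGCTG, compared with 18.3% of 27025 genes, and 5 of the 8 genes higher on both backgrounds did. Some genes have several windows, and counted per window the shares were 47.2% of 36 and 16.3% of 32851. The looser E-box CANNTG, which includes every CAGCTG, was in 26 of 30 (86.7%), compared with 75.0% of genes. On either strand, the CArG box was in 3 of 30, *Acta1*, *Ldb3* and *Myh4* (10%, compared with 1.81%), and the MEF2 motif in 1, *Ttn* (3.33%, compared with 0.636%). TATAAA was in 8 of 30 (26.7%, compared with 15.7%). These are matches of letters, found alike in genes that were measured here (*Acta1*, *Casq1*, *Eno3*, *Mybpc1*) and in genes at the floor, such as *Tnni1*. The promoters of *Actn3*, *Tnnt3*, *Tnni2*, *Neb*, *Myot*, *Tcap* and *Myod1* were not analysed here.

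The effect of the *Matn3* mutation was also read on both backgrounds. In the *Matn3* mutant against the wild type, 10 genes (27.0%) were higher and 14 (37.8%) lower, beside 21.2% higher and 19.3% lower over all genes, and the median log2 difference was -0.10, beside 0 over all genes. The 8 genes above the median signal were 1 higher and 5 lower, beside 13.2% and 17.6% of genes above the median, with a median of -0.66. The 5 were *Tnnt3*, *Tnni2*, *Acta1*, *Eno3* and *Myod1*, and the 1 was *Tnnc1*. Of the fast filament genes 6 of 10 were lower and 1, *Myh4*, was higher. Of the slow filament genes 0 of 5 were lower and 2, *Tnnc1* and *Myh7*, were higher. The slow genes *Myh7*, *Tnnt1* and *Tnni1* were under 1 in the wild type, as were the fast genes *Myh2*, *Myh4* and *Mybpc2*. Set to 1, they could not be counted as lower, so these counts do not compare fast with slow genes.

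On the XBP1 null background the same mutation gave an even split. In the double mutant against the XBP1 null, 9 genes were higher and 9 lower (24.3% each), beside 16.6% and 16.9%, and the median difference was 0, beside 0 over all genes. Among the 8 genes above the median signal, 0 were higher and 2 lower, *Eno3* and *Myod1*, beside 7.38% and 10.5%, with a median of -0.16. By their brightest probe sets, 6 genes were lower with the mutation on both backgrounds, *Eno3*, *Myod1*, *Mylpf*, *Myog*, *Tnnc2* and *Myl1*, beside 5.47% of all genes. The second probe set of *Myod1* was 3.04-fold higher in the *Matn3* mutant than in the wild type. The 3 that were higher on both were the myosins *Myh8*, *Myh4* and *Myh7*, beside 7.49%, and none of these exceeded 13.2. The second probe set of *Myh4* was 1.49-fold lower in the double mutant than in the XBP1 null. *Mb* went in opposite directions by its brightest probe set, beside 6.75% of all genes. Its second probe set was higher with the mutation on both backgrounds, by 2.58-fold and 2.32-fold.

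**Figure D3:**
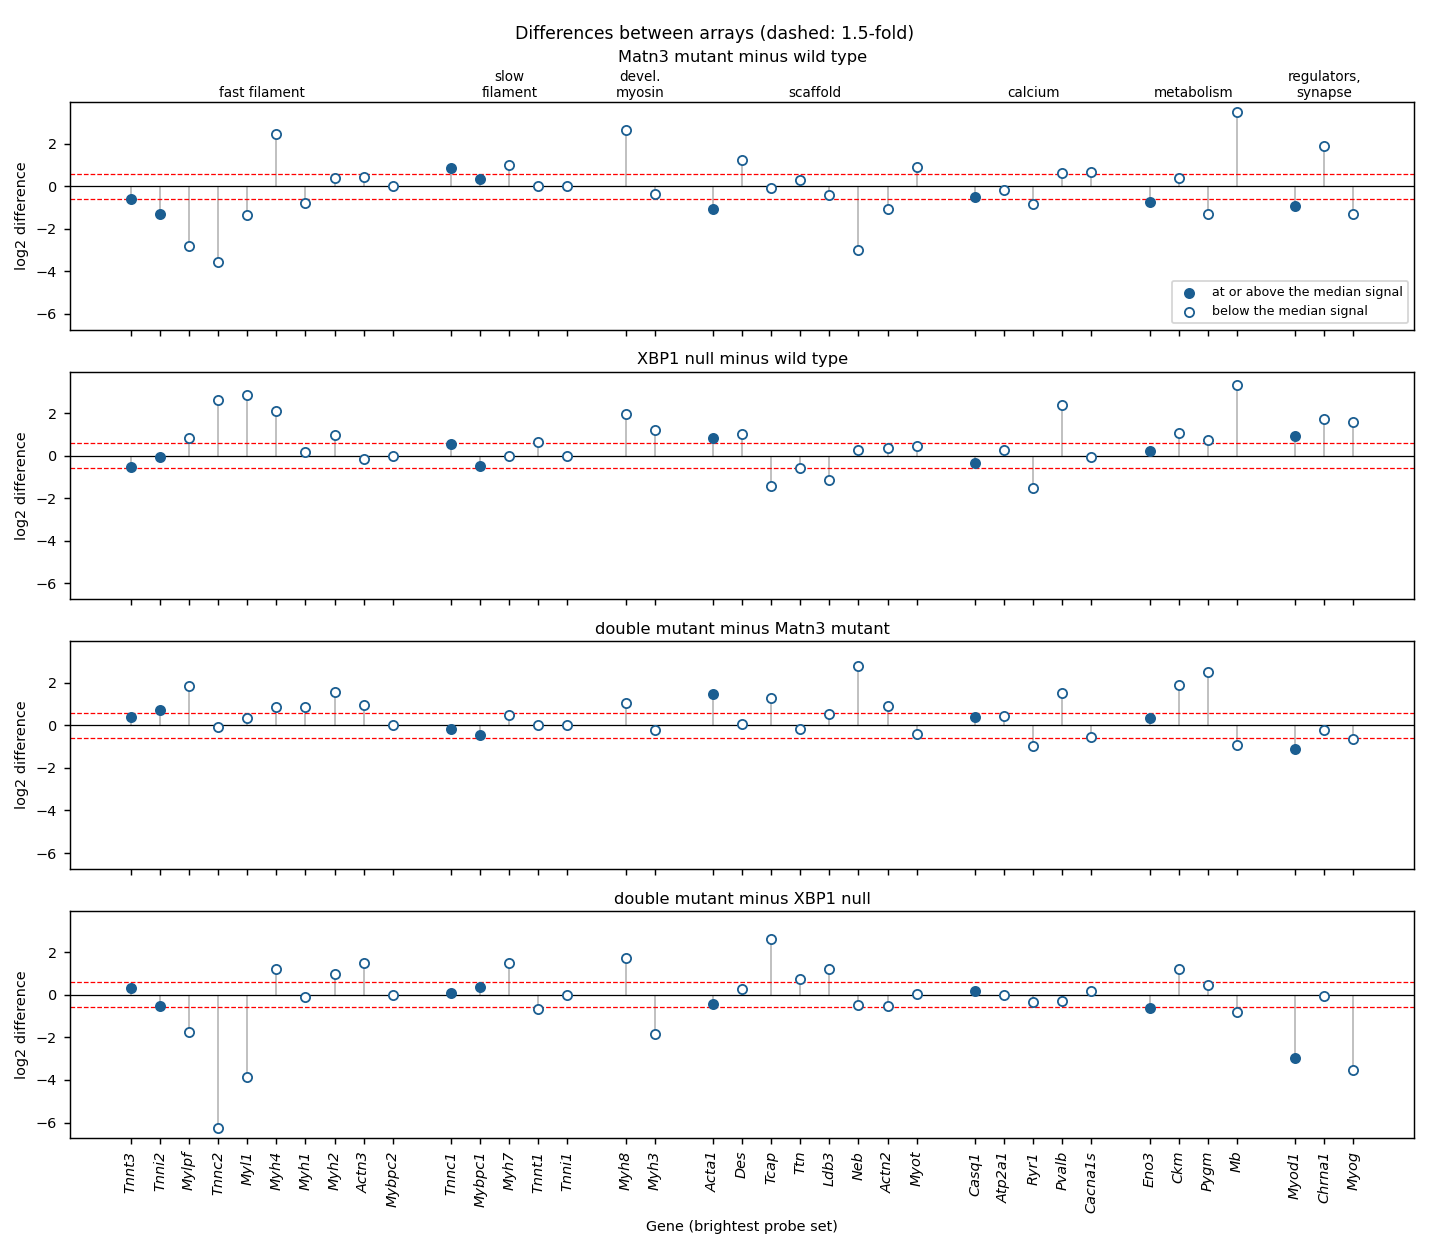
Log2 differences of the 37 genes in the 4 comparisons (vertical axis, signals under 1 set to 1), grouped by role. Filled circles are the 8 genes at or above the median signal, open circles the other 29, and dashed lines mark 1.5-fold. The filled circles lie closer to 0 than many open ones, and 5 of the 8 lie below the lower dashed line in the *Matn3* mutant against the wild type.

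Over the 4 comparisons, 80 differences of the 37 genes passed 1.5-fold. In 61 of the 80 both signals were below 41.6, in 24 both were below 5.52 and in 12 one signal was under 1. Genes that passed in all 4 comparisons numbered 6, *Myh4*, *Mylpf*, *Myh8*, *Mb*, *Myod1* and *Myog*, and 5 passed in none, *Mybpc2*, *Tnni1*, *Mybpc1*, *Casq1* and *Atp2a1*. Where a brightest probe set passed and the gene had others, the others passed in the same direction in 17 of 37 cases, in the opposite direction in 5 and stayed within 1.5-fold in 15.

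The only test that the 4 arrays allow is a fit in which both genetic changes have additive effects. It called none of the 56 probe sets of these genes in limma at an adjusted p under 0.05, for either effect, and none of all 45037 (0.00% for the *Matn3* mutation and 0.00% for the loss of XBP1). The lowest adjusted p among the 56 was 0.635 for the *Matn3* mutation and 0.819 for the loss of XBP1. At an unadjusted p under 0.05 were 11 of the 56 for the *Matn3* mutation, beside 7.51% of all probe sets, and 5 for the loss of XBP1, beside 4.56%. With 1 residual degree of freedom the fit also called none of 100 probe sets given a 4-fold effect in simulated data, so this result does not bound the size of a difference.

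Other genes of muscle were listed alongside. Of 54 further skeletal muscle genes, 19 were at or above the median signal, compared with 8 of the 37 and 60.4% of all genes. In the XBP1 null against the wild type 20 were higher (37.04%) and 8 lower (14.8%), beside 23.3% and 11.5% over all genes, with a median of 0.38. In the double mutant against the *Matn3* mutant 13 were higher (24.1%) and 8 lower (14.8%), beside 17.4% and 9.03%, with a median of 0.07. The *Matn3* mutation gave 18 higher (33.3%) and 14 lower (25.9%) on the wild type background, beside 21.2% and 19.3%, and 10 higher (18.5%) and 20 lower (37.04%) on the XBP1 null background, beside 16.6% and 16.9%. *Myom1*, which links thick filaments at the M-band, was at 17.6 in the wild type, 183 in the XBP1 null, 89.9 in the *Matn3* mutant and 45.4 in the double mutant, so all 3 mutant arrays exceeded the wild type. *Fbxo32*, a ubiquitin ligase of muscle wasting, was at 23.8, 79.2, 58.3 and 41.7 with the same order. *Tpm2*, a tropomyosin also made outside muscle, was at 877, 1709, 656 and 685, with the XBP1 null apart from the others. *Txlnb*, a taxilin of muscle, was at 40.3, 21.3, 63.5 and 80.2 and was lowest in the XBP1 null.

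Of 17 genes of muscle progenitors and differentiation, 8 were higher (47.1%) and 1 lower (5.88%) in the XBP1 null against the wild type, and 6 higher (35.3%) and 1 lower (5.88%) in the double mutant against the *Matn3* mutant, beside 23.3% and 11.5%, and 17.4% and 9.03%, of all genes. Among those more restricted to muscle cells, *Myf5* was at 1.37, 15.9, 2.24 and 0.714, highest in the XBP1 null, *Pax7* was at 5.81, 1.12, 1.17 and 0.767, and *Myf6* did not exceed 1.11. *Mef2a*, a transcription factor of many tissues, was at 1962 in the wild type, 4635 in the XBP1 null, 2562 in the *Matn3* mutant and 2603 in the double mutant. *Mef2c*, which cartilage also uses in hypertrophy, was at 512, 480.3, 210.1 and 233, lower with the *Matn3* mutation on both backgrounds. *Chodl* was at 265, 512, 209 and 428, higher without XBP1 on both. *Sox8* was at 284, 208, 280.0 and 425, and was highest in the double mutant. Of 11 genes of the neuromuscular synapse, 3 were higher (27.3%) and 1 lower (9.09%) in the XBP1 null against the wild type, near those shares of all genes, and 1 higher (9.09%) and 3 lower (27.3%) in the double mutant against the *Matn3* mutant. *Musk*, the kinase that clusters acetylcholine receptors, was at 0.553, 24.8, 10.6 and 1.69, under the floor in the wild type and highest in the XBP1 null, whereas *Rapsn*, their anchor, was under 1 on every array. *Lrp4*, the agrin receptor, which bone and cartilage cells also make, was at 46.2, 99.5, 37.4 and 65.0, higher without XBP1 on both backgrounds. *Dok7* and *Etv5* stayed within 1.5-fold. Of 12 heart muscle genes, 2 were higher (16.7%) and 3 lower (25%) in the XBP1 null against the wild type, beside 23.3% and 11.5% of all genes.

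Markers of other cell types were counted in the same contrasts, and the lists did not all go the same way. Over all genes, 23.3% were higher and 11.5% lower in the XBP1 null against the wild type. In the double mutant against the *Matn3* mutant, 17.4% of all genes were higher and 9.03% lower. Of 11 endothelial genes 11 were higher in the XBP1 null than in the wild type, with a median log2 difference of 4.92, and the sum of their signals was 162 in the wild type, 3952 in the XBP1 null, 646 in the *Matn3* mutant and 945 in the double mutant. *Pecam1*, a defining gene of endothelium, was at 0.136, 87.7, 0.329 and 0.534 and the endothelial receptor *Tie1* at 0.597, 25.7, 1.006 and 4.36, so both were well above the floor in the XBP1 null. The 10 smooth muscle genes were 6 higher and 1 lower in that contrast, and 1 higher and 5 lower in the double mutant against the *Matn3* mutant, with sums of 5586, 9081, 5717 and 7851, of which *Acta2*, the smooth muscle actin, made up 4333, 5955, 4102 and 6105. Of 16 genes of perichondrium, tendon and fibroblasts, 8 were higher and 0 lower in the XBP1 null against the wild type and 9 higher and 0 lower in the double mutant against the *Matn3* mutant, with sums of 86298, 114566, 79399.5 and 102075. From highest to lowest the arrays were thus XBP1 null, double mutant, wild type and *Matn3* mutant. *Acta1* had the same order, but no other of the 8 muscle genes above the median signal did. In the sum of the muscle genes without *Tnnt3*, the wild type (1176) was above the double mutant (1152). Adipocyte and leukocyte genes were summed at 735 and 2584 in the wild type and at 4811 and 7060.3 in the XBP1 null. A single gene made up most of each sum. *Fabp4* was at 493 in the wild type and 4285 in the XBP1 null, and *Cd14* at 1961 and 6133. In the same contrast, of the measured genes of leukocytes 8 of 12 were higher and 0 lower, and of osteoblasts 5 of 6 and 0. Of adipocyte genes 4 of 8 were higher and 0 lower, and of erythroid genes 3 of 6 and 0. Nerve and Schwann cell genes were 2 of 8 higher (25%), near the share of all genes, and 2 lower (25%), with a median of -0.07. The part of these cells in the differences of the muscle genes was not tested. In contrast, the 19 genes of chondrocyte matrix were 0 higher and 0 lower in both comparisons for the loss of XBP1, with medians of 0.09 and 0.10.

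**Figure D4:**
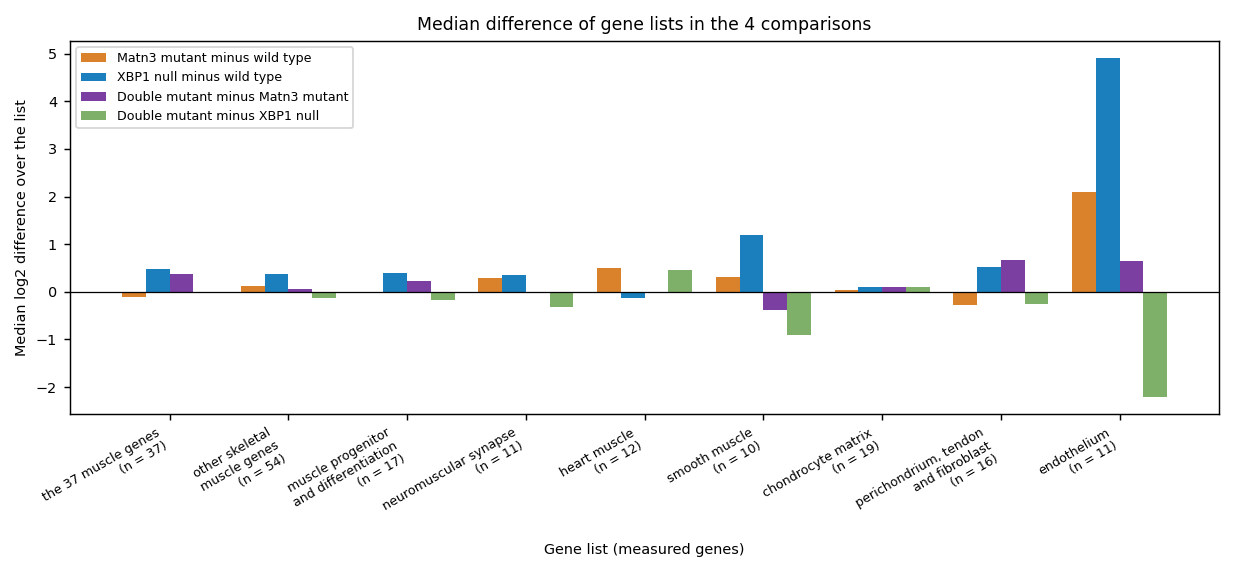
Median log2 difference of the 37 muscle genes and of 8 other gene lists (horizontal axis, with the number of genes measured) in the 4 comparisons, 1 bar per comparison. The endothelial genes reach 4.92 in the XBP1 null against the wild type, the 37 muscle genes reach 0.47, and the chondrocyte matrix genes stay within 0.10.

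The 4 arrays had nearly equal medians of 43.8 over all probe sets. *Xbp1* was at 8183 in the wild type, 7877 in the XBP1 null, 11403 in the *Matn3* mutant and 9548 in the double mutant, so it was lower with the deletion by less than 1.5-fold, namely 1.04-fold and 1.19-fold. Whether its probe set lies outside the deleted exon is not known here, so it does not check the labels. *Matn3* carries a point change and read 10185, 9945, 10462 and 10572.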

How the data were processed

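RNA of 4 preparations of rib chondrocytes, 1 per genotype and each pooled from 3 extractions, had been hybridized to Affymetrix mouse arrays. The deposited values are linear intensities of 45037 probe sets, 1 column per array. How the authors summarized and normalized these intensities was not given in the sources used here. They checked control hybridizations with Microarray Suite 5 and tested with PPLR at 1.5-fold, which needs errors of single probes and was not applied. No per-sample columns were left out.

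Intensities were not scaled further, and were taken as log2 with signals under 1 raised to 1. Probe sets were named from the platform annotation: 34945 name 1 gene, 932 several and 9160 none, and those with several or none were not used for genes. The 37 genes and the 13 other gene lists were chosen with earlier results of these data known, so none of the counts over them is independent support. From the lists of other skeletal muscle genes, muscle progenitors and the neuromuscular synapse, up to 4 genes at or above the median signal were named. These had the largest difference in any comparison. The remaining lists were given as counts, sums or medians. *Pax7*, *Myf5*, *Myf6*, *Musk*, *Rapsn*, *Pecam1*, *Tie1*, *Acta2*, *Fabp4* and *Cd14* were added after their values had been seen. The wild type was compared with each single mutant, and each single mutant with the double mutant.

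The additive fit used limma 3.58.1 (lmFit and eBayes with a trend on intensity) in R 4.3.3 on all probe sets, with Benjamini-Hochberg adjustment, a threshold of 0.05 and 1 residual degree of freedom. It was tested on simulated data, where a loss of XBP1 changed 100 probe sets by 2-fold and 100 by 4-fold. It returned median log2 effects of 0.97 and 2.10 but called 0 and 0. The number of arrays limits the precision of every value. Promoter windows (GRCm38.p6) were searched for motifs on both strands. Python 3.11.15 with pandas 2.3.3, numpy 2.4.6 and matplotlib 3.10.9 was used for tables and plots. Alternatives were 2 other scalings, a higher floor, other choices of probe set, only genes at or above the median signal and a 2-fold threshold, and for the fit no trend, only bright probe sets and quantile normalization.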

Additional observations from a re-analysis of the deposited data

Results flagged for a closer look

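For 4 of the 37 genes, by their brightest probe sets, the loss of XBP1 gave opposite directions on the wild type and the *Matn3* mutant background. Each difference was past 1.5-fold, and 7.05% of all genes passed the same rule. With 1 array per genotype, whether the differences on the 2 backgrounds differ was not tested. On the log2 scale, the departure of the double mutant from the sum of both single differences was -2.04 for *Myod1*, -2.23 for *Myog*, 2.72 for *Tcap* and -4.26 for *Mb*. By mean log2 signal, only *Myod1* of these was above the median. On the *Matn3* mutant background both its signals, 38.7 and 17.9, were below 41.6. Its second probe set was within 1.5-fold for the loss of XBP1 on the wild type background. For the brightest probe set of *Mb* the *Matn3* mutation also gave opposite directions on the wild type and the XBP1 null background, with the same departure of -4.26. *Mb* was the only 1 of the 37 to do so, beside 6.75% of all genes. The second probe set of *Mb* showed neither reversal. It was higher with the mutation on both backgrounds (log2 1.37 and 1.22) and lower without XBP1 on both (-2.17 and -2.32). Both probe sets of *Mb* stayed under 12 on every array.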

How the results depend on the processing

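The values of 26 of the 86 repeats under another setting moved, while the number of probe sets of these genes called in the additive fit stayed at 0 in each. Fitted to bright probe sets only, that fit called 13 of 22519 probe sets for the *Matn3* mutation, none of them of these genes, in place of 0. With every signal under the 25th percentile raised to it, the *Matn3* mutant against the wild type gave 4 genes higher and 8 lower, and the medians were 0 in that comparison and in both for the loss of XBP1, where 13 and 10 genes were higher and 3 and 3 lower. At 2-fold, the *Matn3* mutant against the wild type gave 5 higher and 9 lower, the XBP1 null against the wild type 11 higher, and the double mutant against the *Matn3* mutant 9 higher and 1 lower. Among the 8 genes at or above the median signal, the numbers higher and lower were 1 and 5 (*Matn3* mutant against wild type, median -0.66), 2 and 0 (XBP1 null against wild type, median 0.0863), 2 and 1 (double mutant against *Matn3* mutant) and 0 and 2 (double mutant against XBP1 null, median -0.16), where fewer genes were counted by construction. Quantile normalization gave medians of -0.28 for the *Matn3* mutant and 0.27 for the XBP1 null against the wild type, with 5 genes lower in the latter. For the *Matn3* mutant against the wild type, the median over all probe sets of a gene gave 0, and probe sets without an ambiguous suffix, which 31 of the genes had, gave 0.0010. The cause of the moves under other scalings and probe sets was not tested. No paired analysis was possible because each genotype has 1 array. Low signal limits most of these genes: 29 of 37 lay below the median over all probe sets.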
